A study of Mus musculus with 71 samples.

Results

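Distal RING1B peaks are the intervals of the RING1B time course whose deposited distance to the nearest transcription start, upstream or downstream, exceeds 10 kb. They number 5863 of 15091 intervals (38.9%). Another 9227 intervals lie within 10 kb of a start, and 1 has no distance. RING1B was measured by chromatin immunoprecipitation and sequencing (ChIP-seq) in J1 mouse embryonic stem cells (ESC) grown on feeder cells with LIF, and in neural progenitor cells made from them. For the progenitors, aggregates were kept in suspension without LIF for 4 days, 5 uM retinoic acid was then added, and cells were taken on day 6 or day 8. The cells carried either wild-type CBX7 (WT) or CBX7 into which a domain named CaPS had been introduced (CaPS). WT ESC, WT day 6, WT day 8, CaPS ESC, CaPS day 6 and CaPS day 8 had 2 libraries each, 1 from experiment 3 and 1 from experiment 5 of the study's numbering. The labels do not say whether each genotype was 1 clone, nor that libraries came from separate cultures. All p-values thus rest on spread between these libraries, which may be technical. For single RING1B peaks that spread is the one usual at the peak's signal, not the peak's own. The tables used here hold no expression, so the cell labels were not checked against marker genes.

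Polycomb repressive complex 1 (PRC1) holds RING1B, the enzyme that places ubiquitin on histone H2A. CBX7 is the subunit of canonical PRC1 that recognizes H3K27me3, the repressive histone mark written by Polycomb repressive complex 2. In stem cells PRC1 is best known at CpG-rich promoters of developmental regulators, and intervals far from promoters can hold regulatory elements or the edges of broad Polycomb domains.

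Each value is the number of tags in the interval scaled to a library of 10 M tags, here written as tags per 10 M. Library totals ran from 11.3 to 25.34 M tags in experiment 3 and from 2.01 to 6.2 M in experiment 5. Between 3.86% (WT day 8, experiment 3) and 12.07% (CaPS day 6, experiment 5) of tags fell in peaks. The 2 WT day 8 libraries differed in this share, at 3.86% and 6.98%, as did the CaPS day 6 libraries at 5.61% and 12.07%. A count of 3 tags, taken as the limit of detection, correspond to 1.184 to 14.947 tags per 10 M, and 17.1% to 95.4% of the distal peaks reached it, depending on the library. In WT day 6 of experiment 5, 37.1% of distal peaks had no tag. Floors and intervals given here cover counting error only.

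Some distal peaks contain a transcription start in RefSeq although their deposited distance is over 10 kb. They number 153 (2.61%), and 50 of them contain the start of a protein-coding gene. Sequences are shown for 6 of these starts because they let the CpG content of strong and weaker members be read directly. Each is the 250 bases before the start, on the gene's strand, from RefSeq (GRCm38.p6, the mm10 build), with every CG in capitals. The first 3 lie in the strongest members with H3K27me3 in ESC or at day 8, and the last 3 in members without it.
Nr2f2: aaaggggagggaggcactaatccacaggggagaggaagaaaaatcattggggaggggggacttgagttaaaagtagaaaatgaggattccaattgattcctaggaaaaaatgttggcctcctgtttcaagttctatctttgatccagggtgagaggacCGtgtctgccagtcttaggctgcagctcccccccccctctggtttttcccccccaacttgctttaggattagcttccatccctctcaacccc
Nfix: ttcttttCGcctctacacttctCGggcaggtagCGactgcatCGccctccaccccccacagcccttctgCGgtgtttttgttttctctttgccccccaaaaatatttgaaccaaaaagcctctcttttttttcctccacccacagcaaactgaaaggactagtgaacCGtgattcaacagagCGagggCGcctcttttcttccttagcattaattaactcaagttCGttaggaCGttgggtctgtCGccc
Hoxd4: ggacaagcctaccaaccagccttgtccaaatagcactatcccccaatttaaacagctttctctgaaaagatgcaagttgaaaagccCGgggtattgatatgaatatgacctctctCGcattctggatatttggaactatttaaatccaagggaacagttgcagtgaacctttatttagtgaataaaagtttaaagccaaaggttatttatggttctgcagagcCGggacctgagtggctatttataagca
Maml2: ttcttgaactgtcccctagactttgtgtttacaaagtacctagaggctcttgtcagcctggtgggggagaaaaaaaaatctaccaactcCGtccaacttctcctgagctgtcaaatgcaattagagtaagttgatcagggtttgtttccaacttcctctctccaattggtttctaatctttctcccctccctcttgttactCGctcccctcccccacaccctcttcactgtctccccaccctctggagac
Zscan18: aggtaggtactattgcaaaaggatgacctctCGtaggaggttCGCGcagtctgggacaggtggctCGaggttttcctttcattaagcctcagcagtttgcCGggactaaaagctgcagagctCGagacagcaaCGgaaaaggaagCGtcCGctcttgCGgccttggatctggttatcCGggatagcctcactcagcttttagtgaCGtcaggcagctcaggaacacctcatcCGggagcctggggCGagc
Gtdc1: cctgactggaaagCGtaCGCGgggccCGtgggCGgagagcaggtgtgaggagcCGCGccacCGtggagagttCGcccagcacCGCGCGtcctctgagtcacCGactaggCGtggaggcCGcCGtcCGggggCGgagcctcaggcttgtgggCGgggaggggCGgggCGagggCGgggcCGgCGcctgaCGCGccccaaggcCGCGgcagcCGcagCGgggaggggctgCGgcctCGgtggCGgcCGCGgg
The Nr2f2 window (chr7:70366747-70366996, minus strand) holds 1 CG, the Nfix window (chr8:84780083-84780332, minus) 11 and the Hoxd4 window (chr2:74721728-74721977, plus) 3. The Maml2 window (chr9:13297708-13297957, plus) holds 2, the Zscan18 window (chr7:12803639-12803888, minus) 14 and the Gtdc1 window (chr2:44927237-44927486, minus) 35. The single windows thus span CG counts from 1 to 35 with no separation by H3K27me3. Over 32851 RefSeq start windows the median was 6 CG, and 92.1% held at least 1 CG on either strand. It was 9 over 148 windows in 91 members with H3K27me3 and 5 over 73 windows in 62 members without it.

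Most distal peaks were short and weak. An interval length of 499 bases, the shortest in the table, was found in 4092 of them (69.8%), against 33.7% of the peaks within 10 kb. The mean over the 12 libraries had a median of 3.83 tags per 10 M, with a range of 1.27 to 3498.11, against 14.03 within 10 kb. Per kb of interval the medians were 7.32 and 14.91. A library spread evenly over the genome would put about 1.9 tags per 10 M into 499 bases. A mean of at least 10 was reached by 1096 distal peaks (18.7%) and 59.4% of the others, and the 100 strongest distal peaks held 43.4% of all distal tags. The distance to a start had a median of 45452 bases and reached 1952944 bases, and 2164 members (36.9%) had another member within 50 kb. Nearest the limit, Camk2n1 (mean of 18.5) and Zfp287 (3.8) were just inside at 10029 and 10016 bases, and peaks by Rn4.5s (3.9) and Crybg3 (2.4) were just outside at 10000 bases.

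By the deposited annotation, 3559 members (60.7%) were intergenic and 2010 (34.28%) intronic. Exons held 185, 3′ UTRs 57, transcription termination sites 34, non-coding transcripts 16 and 5′ UTRs 2. The detailed annotation placed 217 (3.7%) in CpG islands, against 7.14% of peaks within 10 kb. It placed 1515 (25.84%) in repeats, against 8.16%. Among repeats were 462 in LTR elements, 431 in SINEs, 389 in LINEs, and 139 in simple repeats or low-complexity sequence. L1 was the most frequent family with 366 members, before the retroviral families ERVK (197) and ERVL-MaLR (176). CpG island members were long and strong, with a median length of 1952 bases and a median mean of 31.91 tags per 10 M, against 3.36 for members in repeats. Per kb these medians were 16.47 and 6.54. The strongest member in an LTR element lay in intron 1 of Cacna2d1, which encodes an auxiliary subunit of calcium channels, with a mean of 189.1. Chromosome 8 held 492 members (8.39%), against 5.81% of the peaks within 10 kb, and the X chromosome 54 (0.92%, against 2.21%).

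H3K27me3 covered a minority of the distal peaks. An H3K27me3 interval of the ESC table overlapped 508 members by at least 1 base (8.66%, 95% Wilson interval 7.97 to 9.41), and an interval of the day 8 table overlapped 804 (13.71%, 12.86 to 14.62). Within 10 kb the shares were 28.7% and 37.95%. The intervals treat peaks as independent. Split by stage, 372 members overlapped H3K27me3 at both stages, 136 in ESC only, 432 at day 8 only and 4923 in neither table. The 372 members marked at both stages were 6.34% of members and held 53.9% of distal tags, with a median mean of 49.74 against 3.51 where neither table had a peak. Per kb these medians were 17.4 and 6.82. Seen from the mark, 12.63% of the 4253 ESC H3K27me3 peaks over 10 kb from a start overlapped a member, and 27.47% of the 3022 such peaks at day 8.

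Overlap with H3K27me3 differed by annotation and width. It was 69.1% in CpG islands (62.7 to 74.9), 38.9% in exons (32.2 to 46.1), 17.8% in other intergenic sequence and 10.9% in other introns. In repeats it was 7.1% (5.9 to 8.5), with 9.0% for SINEs, 4.4% for LINEs and 3.9% for LTR elements. It went from 21.6% at 10 to 20 kb from a start to 10.7% beyond 100 kb. Length moved with all of these: the overlap was 4.4% for 499-base members, 26.5% for longer ones under 2 kb, 80.2% from 2 to under 4 kb and 97.3% from 4 kb upward. Within 10 kb the same lengths gave 11.5%, 36.7%, 81.3% and 96.3%. A longer interval also has more room to overlap, and its part in these shares was not tested.

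**Figure D1:**
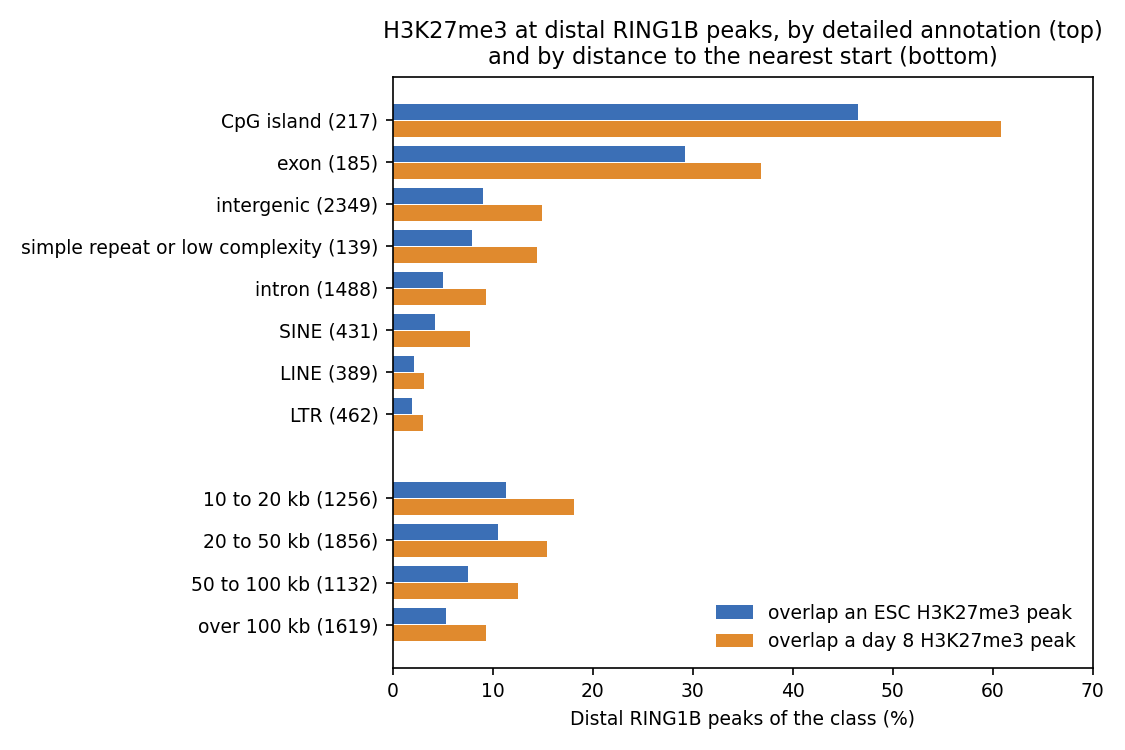
Share of distal RING1B peaks, in percent, that overlap an H3K27me3 interval of the ESC or the day 8 table, by detailed annotation class and by distance from the nearest start. Of the annotation classes shown, CpG island members have the highest shares (46.5% in ESC and 60.8% at day 8). LTR members have the lowest (1.9% and 3.0%).

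The strongest member spanned 51.0 kb at chr7:70323066-70374045 and contained the start of Nr2f2, an orphan nuclear receptor, although the table's nearest gene is Gm29683. In experiments 3 and 5, WT ESC had 6668 and 7721 tags per 10 M, followed by 2535 and 2621 on day 6, and 1042 and 2839 on day 8. CaPS ESC had 5523 and 5854, then 1465 and 3029, then 947 and 1733. All 4 ESC libraries were above all 8 later libraries. The change from ESC to day 8 was -2.06 on the log2 scale in WT (SE 0.56, limma adjusted p = 0.00198) and -2.15 in CaPS (adjusted p = 0.00187). Nfix, a transcription factor of the nuclear factor I family, held the second strongest (chr8:84768666-84803694), which fell by 1.98 in WT (adjusted p = 0.00173) and 1.61 in CaPS (adjusted p = 0.0204). Without the experiment 3 day 8 library of the genotype in question, these 4 calls were lost, with adjusted p of 0.148, 0.109, 0.101 and 0.285. The third contained the start of Hoxd4, a homeobox gene of the HoxD cluster (chr2:74720623-74755708, with the microRNA gene Mir10b as the table's nearest start). It had 3581 and 3932 tags per 10 M in WT ESC and 378 and 486 on day 8. In CaPS it had 2516 and 2525 in ESC and 416 and 633 on day 8. It fell by 3.13 in WT (SE 0.45, adjusted p = 3.6e-10) and by 2.29 in CaPS (adjusted p = 1.43e-05). A member by Tfap2b, an AP-2 transcription factor gene (chr1:19228127-19244379, mean of 1107.5), was called in neither genotype at day 8.

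The comparison of day 8 with ESC asks how RING1B binding changed as neural progenitors formed. In WT cells RING1B fell at 641 distal peaks and rose at 167 by day 8 (limma on log2 of the value plus 1, adjusted p under 0.05), where 22.6% of all 15091 peaks were called, 20.9% lower and 1.73% higher. The 641 are 10.93% of members and the 167 are 2.85%. Of the members that fell, 59.0% overlapped H3K27me3 at either stage, against 16.03% of all members. Among them 114 lay in CpG islands and 91 were 499 bases long, classes that hold 3.7% and 69.8% of all members. Of the 641, 493 had a mean of at least 10 tags per 10 M. At that mean 38.23% of all members overlapped an ESC interval of the mark and 55.66% a day 8 interval. These 2 shares are for single stages, unlike the 59.0%. Of the 1096 members at that mean, 340 overlapped the mark at both stages, 79 in ESC only, 270 at day 8 only and 407 in neither. CpG islands held 17.24% of the members with a mean of at least 10. Whether falls went with the mark or with CpG islands beyond signal strength was not tested. Of the members that rose, 29.3% overlapped the mark, 0 lay in CpG islands, 55 lay in repeats and 112 were 499 bases long. By day 6, 507 had fallen and 104 had risen in WT, with 16.2% of all peaks called (14.6% lower, 1.61% higher). The 104 were mostly 499-base intervals (78). Both libraries of a stage moved the same way at 641 of 641 and 167 of 167 day 8 calls, which calling from 2 libraries a group largely ensures. The stage with more signal had a mean of at least 10 tags per 10 M at 588 of the 641 and 59 of the 167. The alternative fit with edgeR called 622 of the 641 and 95 of the 167.

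These splits depended on the scaling. With each library brought to the same sum over all peaks, the median log2 change of all peaks from ESC to WT day 8 went from -0.61 to 0.36, and that of the distal peaks from -0.27 to 0.57. On that scale 145 distal peaks fell and 580 rose at WT day 8, and 124 fell and 332 rose at WT day 6. Of the calls above, 145 of the 641 and 167 of the 167 were also called on that scale. As that scale moves the WT day 8 changes upward, the 167 kept rises are no separate support. In CaPS the same scaling gave 166 lower and 198 higher at day 8, and 124 and 198 at day 6.

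In CaPS cells 510 distal peaks fell and 78 rose by day 8, with 15.8% of all peaks called (14.1% lower, 1.63% higher), and 252 fell and 102 rose by day 6, with 7.5% called (5.06% lower, 2.45% higher). The CaPS and WT contrasts share no library. At day 8, 314 members fell in both genotypes (49.0% of the WT and 61.6% of the CaPS calls), and 11 rose in both (6.6% and 14.1%). Leaving out 1 library moved these counts by over 1.5 times. The WT day 8 total of 808 went to 524 or 421 without the experiment 3 or 5 ESC library and to 482 or 404 without the experiment 3 or 5 day 8 library. The CaPS day 8 total of 588 went to 371, 270, 328 and 183 in the same order. The WT day 6 total of 611 went to 386 and 249 without the ESC libraries of experiments 3 and 5 and to 130 without the day 6 library of experiment 5. The CaPS day 6 total of 354 went to 53 and 136 without the experiment 5 ESC and day 6 libraries. In all 12 single-library omissions, 229 of the 808 and 118 of the 588 kept their call.

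Members marked by H3K27me3 at both stages had the largest median fall of the 4 H3K27me3 classes in WT at day 8, but not in CaPS. Their median was 73.5 and 72.41 tags per 10 M in the WT ESC libraries, 31.72 and 36.12 on day 6, and 22.22 and 30.23 on day 8. In CaPS it was 63.96 and 73.36, then 35.38 and 64.0, then 28.52 and 40.63. Both day 8 libraries were below both ESC libraries in each genotype. The median log2 change at WT day 8 was -1.51, and 227 of 372 fell and 3 rose. It was -1.38 for the members marked in ESC only, of which 60 of 136 fell and 0 rose. Members marked at day 8 only had a median of -0.43, with 91 of 432 lower and 46 higher. Where neither table had a peak, the median was -0.11. On the same-sum scale these 4 medians were -0.4, -0.38, 0.6 and 0.69, so the order of the classes was similar and the sign of the last 2 turned. The library medians of the class in neither table were between 2.49 and 4.13 tags per 10 M. In experiment 5 they lay below the 3-tag limit of every library (4.837 to 14.947), so they cannot show whether RING1B changed there. In CaPS at day 8 the median log2 changes were -1.04 for both stages, -1.12 for ESC only, -0.46 for day 8 only and -0.2 for neither. Over both genotypes, the change at members with H3K27me3 minus that at the others was -0.78. Among members with a mean of at least 10 it was -0.11.

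**Figure D2:**
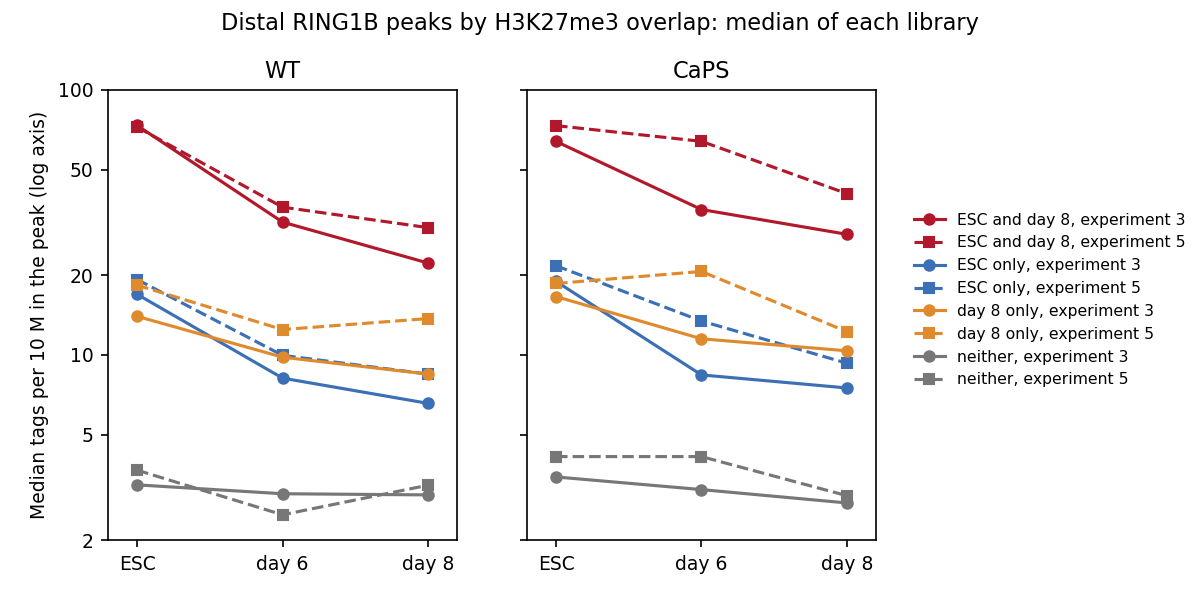
Median RING1B signal of distal peaks in each library (tags per 10 M, log axis) at ESC, day 6 and day 8, by H3K27me3 class, with WT and CaPS in separate panels. The class marked at both stages goes from 73.5 and 72.41 in WT ESC to 22.22 and 30.23 at day 8, while peaks in neither table stay between 2.49 and 4.13.

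Large falls included Meis1, a homeobox cofactor of Hox proteins. The member at chr11:18867062-18880471 lay 145.2 kb from its start and overlapped H3K27me3 in ESC only. It had 1537 and 1588 tags per 10 M in WT ESC, 342 and 451 on day 6, and 113 and 201 on day 8. In CaPS it had 1282 and 1234, 280 and 572, and 120 and 187. The ESC values lay above every later value in both genotypes. It fell by 3.36 in WT (SE 0.38, adjusted p = 8.06e-16) and by 3.06 in CaPS (adjusted p = 5.25e-13). The steepest fall by the naming rule in WT was near Gm3942 (chr10:112818783-112825900), with 207 and 339 in WT ESC and 10.6 and 16.1 on day 8, a log2 change of -4.24 (SE 0.43, adjusted p = 2.14e-19). A member 52.8 kb from Olig2, a regulator of motor neuron progenitors, rose in WT (chr16:91172431-91173080). It had 0.81 and 0.00 tags per 10 M in WT ESC and 14.4 and 27.4 on day 8, with a log2 change of 3.96 on the value plus 1 (adjusted p = 0.000127). Its ESC values are below the 3-tag limit of 1.613 and 10.999 in those libraries.

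A member in intron 13 of 15 of Aopep, an aminopeptidase gene, rose in both genotypes (chr13:63269412-63275976, nearest start Gm16907). It had 40.9 and 40.3 tags per 10 M in WT ESC, 71.3 and 149 on day 6, and 208 and 231 on day 8. In CaPS it had 56.2 and 70.3, 347 and 873, and 553 and 1054. Values were above ESC at both later stages and were highest in CaPS. The change to day 8 was 2.41 in WT (adjusted p = 8.43e-10) and 3.58 in CaPS (SE 0.35, adjusted p = 3.63e-20). It was called higher in CaPS than in WT at day 6 (2.4, adjusted p = 4.42e-08) and at day 8 (1.80, adjusted p = 0.00015). The day 8 genotype call was lost without the WT day 8 library of experiment 5 (adjusted p = 0.437).

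**Figure D3:**
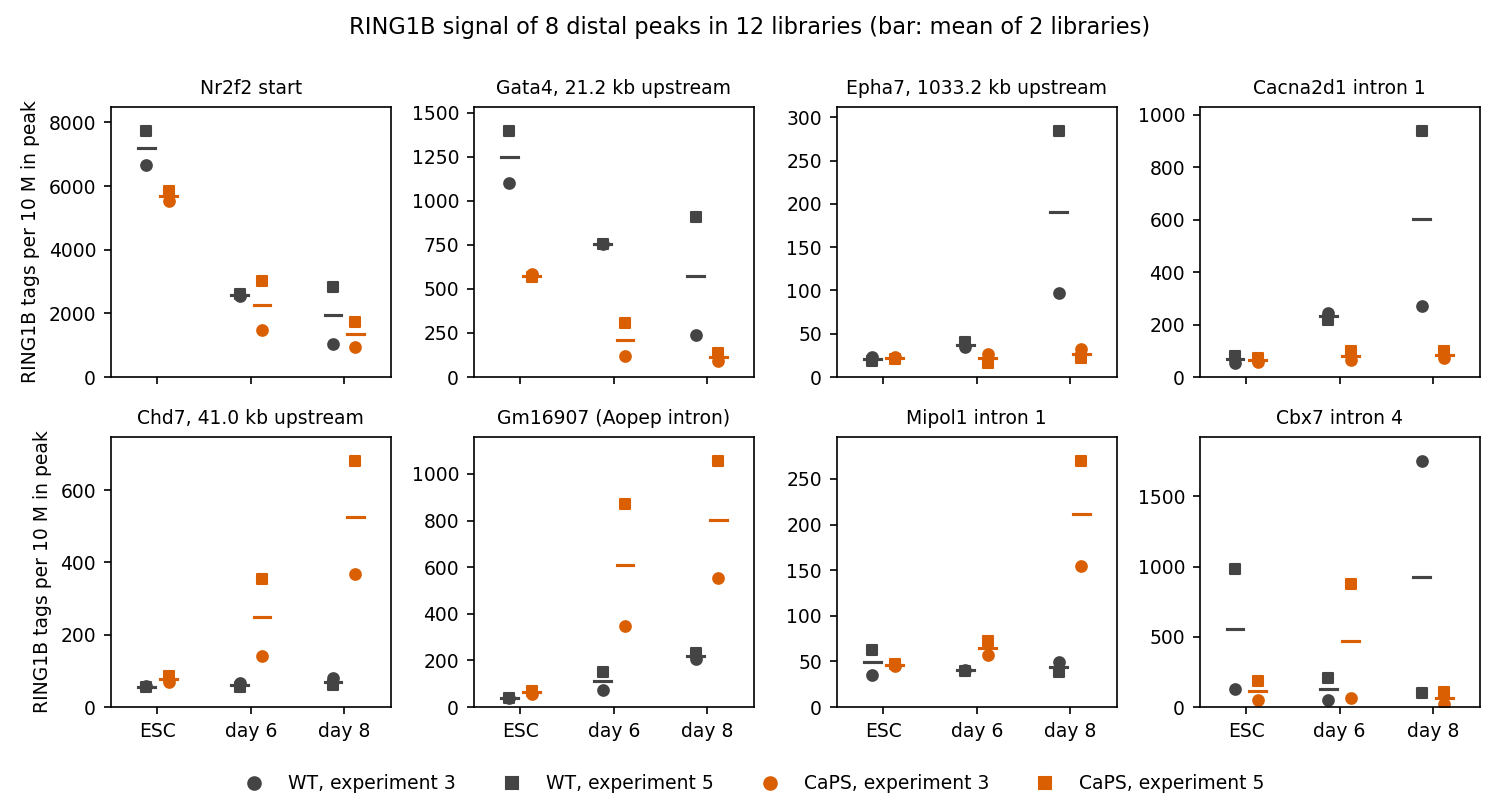
RING1B signal (tags per 10 M, linear axes from 0, scaled per panel) of 8 named distal peaks in each of the 12 libraries, by stage, with genotype in colour, experiment by marker and a bar at the mean of 2 libraries. The Chd7 member reaches 369 and 679 in CaPS day 8, above every other library, and the Cbx7 member varies between libraries of the same group.

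In ESC, CaPS and WT differed at 3 distal peaks, all lower in CaPS, with 0.0663% of all peaks called (0.0265% lower, 0.0398% higher). They were near Gm21188 (log2 change of -2.25, adjusted p = 0.000212), in intron 4 of 6 of Cbx7 (-1.88, adjusted p = 0.000759) and near Celrr (-1.82, adjusted p = 0.0134). The Gm21188 member spans Gm36079, and whether its reads map to this place alone was not tested. The Cbx7 member lies in the engineered gene and was erratic, with 128 and 979 in WT ESC, 1748 and 99.2 in WT day 8 and 22.3 and 111 in CaPS day 8. Each of the 3 calls was lost without 1 library: without WT ESC of experiment 5 for Gm21188 (adjusted p = 0.158) and Cbx7 (1.00), and without CaPS ESC of experiment 5 for Celrr (1.00). At an unadjusted p under 0.05 there were 448 distal peaks. The count was 9 without WT ESC of experiment 3, 0 without WT ESC of experiment 5, 20 without CaPS ESC of experiment 3 and 1 without CaPS ESC of experiment 5.

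At day 6, 35 distal peaks were lower and 120 higher in CaPS, with 3.98% of all peaks called (0.325% lower, 3.66% higher), and 67 and 57 on the same-sum scale. A member 21.2 kb from Gata4, a regulator of endoderm and heart (chr14:63260979-63271933), was lower. Its values were 754 and 752 tags per 10 M in WT day 6 and 118 and 306 in CaPS day 6, a log2 change of -1.98 (SE 0.38, adjusted p = 5.27e-05). In ESC, WT had 1101 and 1395 and CaPS 582 and 570, a difference that was not called (-1.10, adjusted p = 0.391). The day 6 total of 155 rested on single libraries. It was 616 without WT day 6 of experiment 3, 7 without WT day 6 of experiment 5, 451 and 4 without CaPS day 6 of experiments 3 and 5, and 86 and 81 without CaPS day 8 of experiments 3 and 5. The calls kept in all 12 omissions were those by Gata4, Gm16907 and Gm21188.

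At day 8, 23 distal peaks were lower and 23 higher in CaPS than in WT, with 1.01% of all peaks called, 0.245% lower and 0.769% higher. On the same-sum scale 47 were lower and 21 higher. The members singled out in the rest of this account beyond the naming rule were chosen after their values were seen. Among the lower were 4 members in the gene desert between Manea and Epha7, an ephrin receptor gene, and 2 near Nkx6-1, a homeobox gene of ventral neural progenitors. Others lay near Dbx1, in an intron of Dennd1a beside Lhx2, in an intron of Chic2 beside Gsx2, and between Mbip and Nkx2-1. Further lower members lay in an intron of Bbx and near Robo1, Slc35b3, Adcyap1 and Celrr. Such neighbours were not limited to the lower set. The higher set included members in an intron of Pax3, between Sox1 and Spaca7, and in Mipol1 beside Foxa1. Of the 23 lower members, 20 overlapped H3K27me3 at day 8, and 14 had risen in WT from ESC to day 8 while 0 had risen in CaPS. Of the 23 higher members, 16 had risen in CaPS and 4 had fallen in WT, and 14 overlapped the mark. Day 8 overlap was 13.71% over all distal peaks, but 73.8% for lengths from 2 to under 4 kb and 89.2% from 4 kb upward. The lower members had a median length of 3797 bases and the higher ones 4588. The Cbx7 member was among the 23 lower (-3.04, adjusted p = 1.43e-13), but experiment 3 had 1748 in WT against 22.3 in CaPS and experiment 5 had 99.2 against 111. Its call was lost without WT day 8 of experiment 3 (adjusted p = 0.948), and at day 6 it was called higher in CaPS (1.25, adjusted p = 0.02). These stage contrasts share their day 8 libraries with the genotype contrast.

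The Epha7 member at chr4:27776692-27783257, 1033.2 kb from the start, had 22.6 and 18.3 tags per 10 M in WT ESC, 34.9 and 39.9 on day 6, and 96.5 and 284 on day 8. In CaPS it had 22.6 and 20.7, 26.5 and 16.5, and 32.0 and 21.5. The 2 WT day 8 values were the highest of the 12. The day 8 difference was -2.61 (SE 0.42, adjusted p = 7.82e-07). The LTR member in Cacna2d1 (chr5:15979911-15995461) had 270 and 938 in WT day 8 against 72.0 and 97.9 in CaPS day 8, a difference of -2.57 (SE 0.36, adjusted p = 2.48e-09). In WT it was already at 243 and 219 on day 6. Gata4 was also lower at day 8 (-2.07, adjusted p = 2.61e-05). Without WT day 8 of experiment 5, none of these 3 was called, with adjusted p of 0.862, 0.114 and 0.868.

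The Chd7 member (chr4:8647590-8651163), 41.0 kb upstream of a chromatin remodeller gene, was higher in CaPS. It had 58.3 and 55.0 tags per 10 M in WT ESC, 66.4 and 54.8 on day 6, and 79.2 and 60.5 on day 8. In CaPS it had 69.3 and 84.7, 142 and 353, and 369 and 679. CaPS day 8 was above every other library, and WT varied little. The day 8 difference was 2.84 (SE 0.36, adjusted p = 1.35e-11), the single distal call at day 8 that held in all 12 omissions. Lin28b, whose product blocks let-7 maturation, had a member at chr10:45483814-45490243 with 54.2 and 31.4 in WT day 8 and 145 and 302 in CaPS day 8 (2.32, adjusted p = 3.74e-07). A member in intron 1 of Mipol1 (chr12:57277936-57285621) had 49.1 and 37.9 against 154 and 269 (2.21, adjusted p = 4.39e-06). Without WT day 8 of experiment 5 these 2 had adjusted p of 0.332 and 0.159. The total of 46 was 2 without that library, and 30 and 9 without CaPS day 8 of experiments 3 and 5.

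H3K27me3 at day 8 is deposited as the authors' pooled value per genotype, with no replicate (the labels list 1 such library per genotype), from totals of 4.47 M tags in WT and 32.88 M in CaPS. Its difference therefore has no replicate check. The labels place those libraries in experiment 5, whose WT day 8 RING1B library is the one whose omission took the 46 genotype calls to 2. Over all 8657 day 8 H3K27me3 peaks the median log2 ratio of CaPS to WT was -1.06, and over the 862 at distal members -0.8. The 26 H3K27me3 peaks at the members with lower RING1B in CaPS had a median of -2.95 (authors' medians of 307.7 in WT and 28.1 in CaPS), and 25 were below the overall median. The 19 at the members with higher RING1B had a median of 0.45, and 18 were above the overall median. The Epha7 member had 508.0 in WT and 30.7 in CaPS, and Cacna2d1 had 1392.0 and 108.6. The Chd7 member had 39.2 and 57.3.

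The interaction term tests whether the change from ESC to day 8 differed between genotypes. It called 19 distal peaks, 10 with a lower and 9 with a higher change in CaPS, where 0.272% of all peaks were called (0.0729% lower, 0.199% higher). All 10 lower members overlapped H3K27me3 at day 8, as did 7 of the 9 higher ones. Their median lengths were 4747.5 and 4383 bases, and 89.2% of all distal peaks of 4 kb or more overlapped the mark at day 8. The Epha7 member at chr4:27786123-27789919 rose by 3.56 in WT (adjusted p = 1.68e-09) and had -0.86 in CaPS (adjusted p = 0.289), an interaction of -4.42 (SE 0.75, adjusted p = 6.68e-05). The Chd7 member had 0.28 in WT (adjusted p = 0.627) and rose by 2.69 in CaPS (adjusted p = 1.95e-11), an interaction of 2.41 (SE 0.50, adjusted p = 0.00393). None of the 19 was called in all 12 omissions. The count was 1 without WT day 8 of experiment 5, 1 and 9 without CaPS day 8 of experiments 5 and 3, 3 without WT ESC of experiment 5 and 2 without CaPS ESC of experiment 5. On the same-sum scale 22 were lower and 7 higher.

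**Figure D4:**
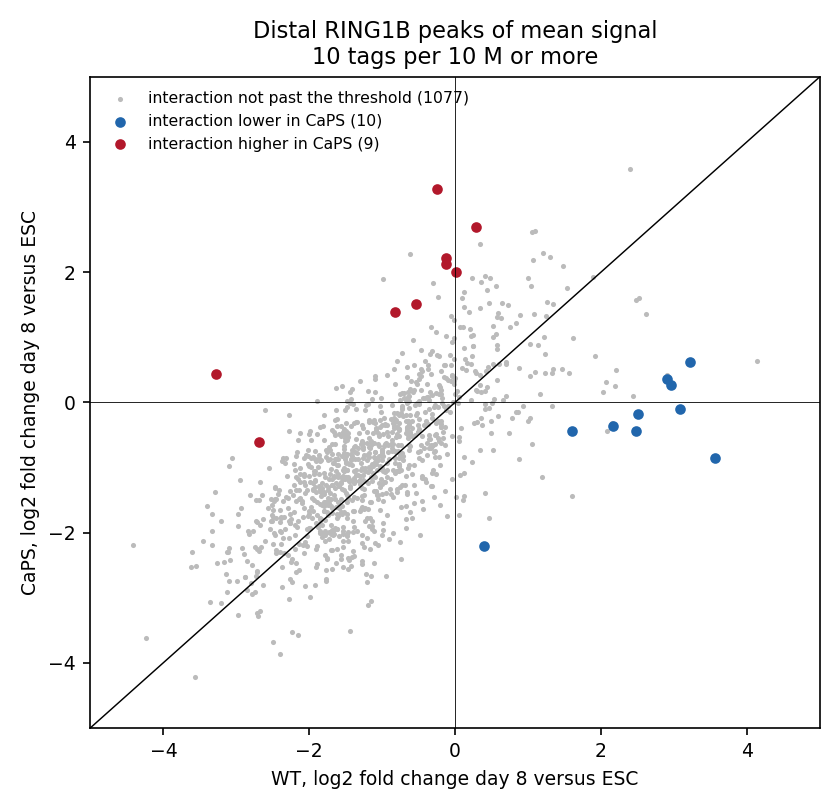
Log2 change of RING1B from ESC to day 8 in WT (horizontal) and CaPS (vertical) for the 1096 distal peaks with a mean of at least 10 tags per 10 M. The 10 members with a lower change in CaPS are blue and the 9 with a higher change red, and the 1077 others are grey.

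Members whose nearest gene is on a list of developmental or Polycomb genes were counted without a test of the list. Over all distal peaks the median change at WT day 8 was -0.27. The neural progenitor list had 121 members at 42 of its 66 genes, 55 of them with H3K27me3. In WT at day 8, 16 fell and 7 rose, with a median of 0.00, and in CaPS 14 fell and 6 rose. The shares that fell, 13.2% and 11.6%, were near the 10.93% and 8.7% of all distal peaks. The shares that rose, 5.8% in WT and 5.0% in CaPS, were above the 2.85% and 1.33% of all distal peaks. Among distal peaks with a mean of at least 10 tags per 10 M, 3.47% rose in WT and 4.56% in CaPS. The falls included Meis2 (-3.15, adjusted p = 2.73e-15), a homeobox gene, and a member near Sox1, a neural stem cell factor (-2.67, adjusted p = 0.000101). Rises in WT included Nkx6-1 (2.21, adjusted p = 2.23e-05). Rises in CaPS included 4 members near Pax3, a regulator of neural crest, such as the one 88.6 kb away (1.91, adjusted p = 0.0106). The Wnt list had 27 members at 16 of 42 genes, of which 8 fell and 1 rose in WT at day 8 and 5 fell in CaPS. These falls were 29.6% and 18.5% of its members, against 10.93% and 8.7% of all distal peaks. Wnt members were stronger, with a median mean of 7.1 tags per 10 M against 3.83. Of distal peaks with a mean of at least 10, 44.98% fell in WT and 34.03% in CaPS. Whether the Wnt shares differed from those of peaks of like strength was not tested. Its members near Wnt3, a ligand, included one 37.1 kb away that fell by 2.14 in WT (adjusted p = 1.4e-07). That near Nkd1, an inhibitor of the pathway, fell by 2.13 (adjusted p = 9.78e-08). On the same-sum scale the changes of these 2 members were -1.01 and -1.0.

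Among genes of Polycomb subunits, 3 members near Bcor, which encodes a subunit of a variant PRC1, fell in WT at day 8, where 10.93% of all distal peaks fell. On the same-sum scale their WT changes were -1.57, -0.8 and -1.09. The strongest Bcor member fell by 2.72 in WT (adjusted p = 1.36e-10) and by 2.25 in CaPS (adjusted p = 3.35e-07). A further 4 members had a nearest gene in the Hox list, and the 2 near Hoxc4 fell in both genotypes, by 2.72 and 2.18 in WT (adjusted p = 5.28e-12 and 1.12e-07). Of 22 mesoderm members 3 fell in each genotype (13.6%, against 10.93% and 8.7% of all distal peaks), among them Tbx5, a heart and limb factor, by 1.53 in WT (adjusted p = 7.55e-04) and 2.13 in CaPS (adjusted p = 2.27e-06). On the same-sum scale the WT change of that member was -0.39.

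Over whole libraries, the distal share of tags in peaks was 9.73% to 13.45%. CaPS minus WT was -0.77 percentage points (SD 1.03, n = 6 pairs, negative in 4 of 6), with an exact two-sided sign-flip permutation p of 0.1562 and 0.3124 after adjustment over 4 such tests. Day 8 minus ESC was 0.46 points (SD 1.71, n = 4 pairs, exact p = 0.875). The median log2 change to day 8 was lower by 0.78 at members with H3K27me3 than at the others (SD 0.2, n = 4 pairs, negative in 4 of 4). The exact p was the smallest that 4 pairs allow, which is above 0.05, and 0.3124 after adjustment. Among members with a mean of at least 10 tags per 10 M the difference was -0.11, lower in 1 and higher in 3 of the 4 pairs (exact p = 1.0). The CaPS to WT ratio differed between the same sets by 0.15 (SD 0.32, n = 6 pairs, exact p = 0.3438). In ESC, H3K27me3 itself was called at 0 of 562 H3K27me3 peaks over distal members between genotypes by limma, where 0% of all 9195 were called. At an unadjusted p under 0.05 there were 6, and 3 were called on the same-sum scale.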

How the data were processed

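RING1B ChIP was compared over 12 libraries (6 groups of 2) of the time course table, with the H3K27me3 tables of ESC (4 libraries) and day 8 (pooled by the authors). The values are signal per interval, deposited by the authors as tags scaled to 10 M per library, per the file headers. No source used here says whether the totals include the Drosophila spike-in. The submitters' processing notes list HOMER 4.10.4, Bowtie2 2.3.4.3, cutadapt 1.14 and SAMtools 1.9, with builds dm6 and mm10. The totals recover whole read ends (0.5 tag each) for every time course value.

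All 15091 peaks were fitted with limma 3.58.1 (R 4.3.3) on log2 of the value plus 1, with 6 groups and the experiment as a block, and p-values were adjusted over all peaks by Benjamini-Hochberg (threshold 0.05). The prior degrees of freedom were infinite, so each p reflects the spread usual at that signal. The replicate numbers pair libraries because the series' design text states that compared experiments ran at the same time. Deviations of same-numbered libraries correlated at 0.06 to 0.22 over 30 pairs, and at 0.02 to 0.16 over peaks with a mean of at least 10. edgeR 4.0.16 and DESeq2 1.42.0 on read ends were alternatives. Overlap with H3K27me3 needed 1 base. Exact sign-flip tests used SciPy 1.17.1.

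Peaks were named by rule: the 6 strongest, the strongest of each annotation and H3K27me3 class, up to 5 largest changes in each direction per comparison, up to 3 per gene list, and those beside 10 kb. The members and lists were chosen with earlier results of these data known. The omission of single libraries was added after seeing the data. A separate day 8 RING1B table lists 5393 peaks, 0 of them over 10 kb from a start, and was not used here. A result in the list of Polycomb subunits is not reported here.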

Additional observations from a re-analysis of the deposited data

Results flagged for a closer look

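The change of RING1B from ESC to day 8 differed between genotypes at 19 distal peaks by the interaction term of the limma fit. The largest by the naming rule, as CaPS minus WT on the log2 scale, were 2.41 near Chd7, 2.34 near 4930519L02Rik and 2.24 in Mipol1. They were -2.7 and -4.42 at 2 members by Epha7, -2.68 near Adcyap1, -2.92 in Chic2 and -3.19 in Bbx. The values of 3.52 near Nap1l2 and 3.71 near Lactbl1 were not called without CaPS ESC of experiment 5 (adjusted p = 1.0 for both), where these members had 0.00 and 2.07 tags per 10 M. Near Lactbl1 the change was -3.28 in WT and 0.43 in CaPS. edgeR gave the 2 interactions adjusted p of 0.566 and 0.137. The loss was not limited to these 2 members. Without CaPS ESC of experiment 5, 2 distal peaks were called lower and 0 higher. The calls of Chd7, 4930519L02Rik and Mipol1 were thus lost as well. Of the 19 calls, 0 held in all 12 omissions of a single library. Groups of 2 libraries were too small for a search for outlying samples.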

How the results depend on the processing

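Of the alternative values, 128 stayed the same by direction and threshold or within 1.5 times, 66 moved and 3 reversed. For counts of calls only the total was compared, not its split into lower and higher. On the same-sum scale WT day 8 thus counts as the same at 725, although 641 lower and 167 higher became 145 and 580. WT day 6 and CaPS day 6 also went from mostly lower to mostly higher calls and count as the same. The genotype totals at day 6 and day 8 count as the same too. Their splits went from 35 lower and 120 higher to 67 and 57 at day 6. At day 8 they went from 23 and 23 to 47 and 21. Totals called are given in the order WT day 6, WT day 8, CaPS day 6, CaPS day 8 against ESC, then CaPS against WT in ESC, at day 6, at day 8, and the interaction. The reported totals were 611, 808, 354, 588, 3, 155, 46 and 19. Without the replicate block they were 342, 535, 116, 356, 0, 47, 17 and 1. With 1 library left out, chosen after seeing the data, they ran from 130 to 838, 404 to 940, 53 to 507, 183 to 698, 0 to 20, 4 to 616, 2 to 57 and 1 to 23. A pseudocount of 4 moved CaPS day 6 to 671 and the day 6 genotype total to 391. The same sum over peaks moved CaPS day 8 to 364, ESC to 6, the interaction to 29 and the H3K27me3 count to 3. A mean of at least 10 gave 397, 229 and 94 for WT day 6, CaPS day 6 and the day 6 genotype total. Fitting only the groups compared gave 17 for CaPS day 6 and 21, 15 and 272 between genotypes. edgeR gave 401 for WT day 6 and 35 for the day 6 genotype total. DESeq2 gave 404, 39, 1 in ESC and 11 for the interaction. The cause of these moves was not tested. Omitting a whole experiment leaves 1 library a group and no residual degrees of freedom, so it gave no count.

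Overlap with H3K27me3 in ESC was 4.04% when 50% of the peak had to overlap, 7.94% beyond 20 kb and 38.23% at a mean of at least 10. At day 8 these were 10.22%, 12.52% and 55.66%. At that mean CpG islands held 17.24% and repeats 10.68%. The day 8 minus ESC share reversed to -0.40 at that mean, and the CaPS to WT median difference to -0.04. The stage difference of the medians went from -0.78 to -0.11, with 3 of 4 pairs above 0. Without replicate 3 or 5, the CaPS minus WT share was -1.05 or -0.50, the day 8 minus ESC share -0.74 or 1.65, the median difference between genotypes 0.29 or 0.01, and that between stages -0.71 or -0.86. In experiment 5, up to 37.1% of distal peaks had no tag, which limits what could be detected there.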
